A study of Mus musculus with 4 samples.

Results

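Cluster 14 of the authors' graph-based clustering was the smallest of 14 clusters of sorted tumour immune cells, with 309 of 17211 cells in both libraries. Its members are all cells whose deposited cluster column reads 14: 192 of 4232 cells of the control library and 117 of 12979 cells of the IL-12 library. The authors' classification column called 191 of the control members Neutrophils and 1 Macrophages, and called all 117 IL-12 members Neutrophils. The comparison cells were the 8330 cells of clusters 1, 2, 3, 4 and 7, 2523 control and 5807 IL-12, called the neutrophil clusters here. Against them, in both libraries, cluster 14 carried far more RNA of the secondary granule proteins Ngp, Camp and Ltf and of the neutrophil surface protein Ly6g, and far less of the activation genes Cxcl1, Ccrl2, Gadd45b and Hcar2.

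Immune cells came from mouse mammary tumours that had received a plasmid injection into the tumour followed by electroporation. The control group received a control plasmid, which a column of the deposited tables calls Isotype, and the other group a plasmid for interleukin 12 (IL-12), a cytokine known for raising interferon-gamma output by lymphocytes. The labels do not give 1 tumour model: the design text calls the tumours triple-negative, the growth protocol describes spontaneous tumours after HER2 induction in mammary tissue of mice aged 1 month, and the library names in the tables contain 4T1, a mouse mammary carcinoma line. In both groups live CD45+ cells were sorted and 3 mice were pooled, which gave 1 library of transcript 5′ ends per treatment, so treatment, pool and library cannot be told apart and no difference below has a replicate check. Values are summed unique molecular identifiers (UMIs, 1 per captured RNA molecule) over the cells of a cluster, per 1000000 UMIs of those cells (CPM), and all intervals are exact 95% intervals that cover counting error only.

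Neutrophils are made in the bone marrow, and their granule proteins are made in a fixed order as the cells mature. Precursors first make the primary granule proteins (Mpo, Elane, Prtn3, Ctsg), then the secondary or specific granule proteins (Ngp, Camp, Ltf, Lcn2) under the transcription factor C/EBPε, and late cells make gelatinase granule proteins such as Mmp9. Neutrophils that have left the marrow usually hold little RNA of the earlier granule proteins and can switch on chemokine and cytokine genes in an inflamed tissue or tumour.

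The genes with the highest levels against the neutrophil clusters included Camp, Ngp and Ltf, which all lie on mouse chromosome 9. In the mm10 genome with GENCODE vM21, Camp lies at 9:109847379-109849617 on the minus strand, Ngp at 9:110419747-110423012 on the plus strand and Ltf at 9:111019271-111042767 on the plus strand. The 250 bases before each RefSeq start are shown because these 3 genes carry the cluster's main difference; they come from RefSeq (GRCm38.p6), read 5′ to 3′ along the gene. RefSeq starts the genes at 110419808 (Ngp), 111019292 (Ltf) and 109849456 (Camp), inside the GENCODE genes above, so parts of the windows lie within those; positions are counted from the RefSeq starts. Capitals mark matches to TTGCNNAA on either strand, a form of the site that C/EBP factors bind. The windows are chr9:110419558-110419807 (plus) for Ngp, chr9:111019042-111019291 (plus) for Ltf and chr9:109849457-109849706 (minus) for Camp.
Ngp: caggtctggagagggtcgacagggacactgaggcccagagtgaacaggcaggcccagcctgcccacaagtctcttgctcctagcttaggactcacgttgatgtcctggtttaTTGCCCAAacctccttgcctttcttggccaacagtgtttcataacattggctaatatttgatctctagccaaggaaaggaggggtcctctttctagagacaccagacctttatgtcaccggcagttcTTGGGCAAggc
Ltf: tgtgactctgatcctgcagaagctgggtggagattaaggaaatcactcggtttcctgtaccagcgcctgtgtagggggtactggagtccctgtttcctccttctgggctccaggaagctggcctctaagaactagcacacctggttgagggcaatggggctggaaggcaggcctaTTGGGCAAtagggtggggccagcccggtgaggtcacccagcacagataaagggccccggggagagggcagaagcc
Camp: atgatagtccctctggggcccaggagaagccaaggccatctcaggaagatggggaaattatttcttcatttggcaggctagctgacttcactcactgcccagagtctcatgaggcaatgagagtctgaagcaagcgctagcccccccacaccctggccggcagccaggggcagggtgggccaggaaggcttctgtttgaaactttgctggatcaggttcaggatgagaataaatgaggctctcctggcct

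In these windows the letters were found in Ngp with first bases at -138 and -11 from the start, in Ltf at -75 and in Camp nowhere. The search ran on windows of 300 bases, 250 before and 50 after a start. With only the first listed window of each gene, 2906 of 27025 genes held a match (10.8%), as did 296 of 3291 measured genes (8.99%). So did 31 of the 280 genes at least 2-fold higher in cluster 14 (11.1%) and 70 of the 757 at least 2-fold lower (9.25%). Those shares lay close together, and a match describes letters, not a bound site. Of the 15 genes with the highest ratio 11 had a window in the table. Counting any listed start, 4 held a match: Ngp, Ltf, Anxa1 at -143 and, for 1 of its starts, Ly6g at -232. The stretch of chromosome 9 from Camp to Ltf spans 1195389 bases and holds 17 other genes of the table; 6 were measured, 0 were 2-fold higher in cluster 14 and 1 was 2-fold lower, with a median log2 ratio of -0.24 and the highest at 0.89 (Klhl18).

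Some barcodes occurred in both libraries. Of all cells 87 carried a barcode also found in the other library; 87 of these had the same cluster in both tables and 33 the same class. Cluster 14 held 2 such cells in each library, and the neutrophil clusters 48 in each. The 2 control members held 16 and 1 S100a8 UMIs of 2304 and 7497, the IL-12 members 2897 and 804 of 17418 and 7204. S100a8 encodes an abundant neutrophil calcium-binding protein, and both control members lay below the level of their cluster. Whether the cluster label of cells with a shared barcode is each library's own or was joined by barcode was not tested. The membership of all such cells is therefore uncertain, the 2 control members among them. Where a printed ratio moves by over 1.5 times without cells of shared barcodes, the value without them is given beside it.

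Cluster 14 made up 4.54% (3.93 to 5.21) of the sorted control cells and 0.901% (0.746 to 1.08) of the IL-12 cells. Over clusters 1, 2, 3, 4, 7 and 14 alone its share was 7.07% (6.14 to 8.10) and 1.98% (1.64 to 2.36). Genes that set the cluster apart differed in level between the libraries, so no change in abundance is read from these shares. The neutrophil clusters themselves were unevenly filled. Clusters 1 and 4 held 1263 and 552 control but 165 and 26 IL-12 cells. Clusters 2, 3 and 7 held 427, 27 and 254 control but 1914, 2606 and 1096 IL-12 cells. Of the 27 control cells of cluster 3, 21 were called Neutrophils and 15 had a shared barcode. Of the 26 IL-12 cells of cluster 4, 16 were called Neutrophils and 6 had a shared barcode. Cells of cluster 14 were deep, with a median of 6066 UMIs in control (range 2141 to 18169) and 9334 UMIs in IL-12 (range 3771 to 19546), against 2436 and 2522 in the neutrophil clusters. Cluster 7 was the neutrophil cluster nearest in depth, with medians of 5482 and 5203. The median cell of cluster 14 had 996 and 1193 genes with a UMI, and 0.913% and 0.560% mitochondrial UMIs.

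The neutrophil label held against markers. All 15 core neutrophil markers had UMIs in both libraries, and their summed level was 288515 CPM in control and 321672 CPM in IL-12, against 128100 and 117877 CPM in the neutrophil clusters. Most of that sum in cluster 14 came from S100a8, at 135609 and 144884 CPM, and S100a9, its partner in calprotectin, at 115523 and 148833 CPM. The sum therefore does not describe the typical marker of the list. Against the neutrophil clusters, 3 of the 15 markers were at least 2-fold higher and 2 lower in the control library. For the IL-12 library these counts were 4 and 5, and the median log2 ratios of the list lay below 0 (-0.39 and -0.52). In the neutrophil clusters S100a8 stood at 40270 and 29894 CPM and S100a9 at 53385 and 49909 CPM, and 1 cell of cluster 14 held fewer than 10 S100a8 UMIs. Of the receptors, Csf3r, the receptor for the growth factor G-CSF, stood at 466 and 212 CPM in cluster 14 against 722 and 446 CPM, and Cxcr2, which binds CXCL1 and CXCL2, at 670 and 439 CPM against 658 and 272 CPM.

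Markers of other cell types were low or came from genes that neutrophils share. The 10 T cell markers summed to 58.1 CPM in control and 78.7 CPM in IL-12, against 4034 and 6128 CPM in the T cell clusters 5 and 8; Cd3e had 22 and 7 UMIs and Cd8a 2 and 9. The 10 B cell markers summed to 34.1 and 0.828 CPM with 3 and 9 of 10 at 0 UMIs; Cd79a had 6 and 0 UMIs. The 12 macrophage markers summed to 7513 and 7995 CPM, of which Cd14, a lipopolysaccharide co-receptor that neutrophils also make, gave 7223 and 7579 CPM, while C1qa gave 34.9 and 52.2 CPM and Csf1r 13.9 and 12.4 CPM. The neutrophil clusters held more C1qa, at 146 and 179 CPM. The 11 mast cell markers summed to 1131 and 1287 CPM, of which the histamine enzyme Hdc, also on the neutrophil list, gave 1119 and 1252 CPM. A T cell receptor was recorded for 0 members.

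The 10 highest genes of cluster 14 by level were, besides S100a8 and S100a9, mostly genes known from neutrophils. Fth1, the iron storage chain, stood at 43200 and 32957 CPM in the control and IL-12 members, S100a6 at 20584 and 14332, the secreted resistin-like protein Retnlg at 16135 and 9458, Ngp at 8071 and 22171, and the antiprotease-like Wfdc17 at 13765 and 9136. The rest were the transcript CT010467.1, Actb and the stefin-like Cstdc5, at 12596 and 7861 CPM. Against the neutrophil clusters S100a6 was 4.65-fold (4.58 to 4.73) and 4.73-fold (4.65 to 4.81) higher and Retnlg 5.66-fold (5.55 to 5.77) and 9.84-fold (9.61 to 10.1) higher, while Fth1 was 1.15-fold and 2.31-fold lower.

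A gene counted as measured when both sides together held at least 50 UMIs and at least 5% of cells on 1 side had a UMI of it, and as higher or lower at a 2-fold ratio with 1 CPM added to both levels. In the control library 166 of 3912 measured genes were higher in cluster 14 than in the neutrophil clusters (4.24%) and 1095 were lower (28.0%), with a median log2 ratio of -0.53. In the IL-12 library 442 of 4393 were higher (10.1%) and 1105 lower (25.2%), with a median of -0.29. Of 3692 genes measured in both libraries 145 were higher in both (3.93%), 703 lower in both (19.0%) and 1 went opposite ways. With both libraries pooled 341 of 4112 were higher (8.29%) and 968 lower (23.5%); after thinning every cell to 1000 UMIs 189 were higher and 536 lower. The cluster was defined on these cells, so the counts describe it and test nothing. A CPM level is a share of all UMIs of the same cells. The 15 core neutrophil markers took 288515 and 321672 CPM in cluster 14, against 128100 and 117877 CPM in the neutrophil clusters. A larger share for these markers leaves a smaller share for other genes. Its part in the many lower genes and the negative medians was not tested.

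Secondary granule genes led the higher side. Ngp, a cathelicidin-related granule protein, had 10421 UMIs and 8071 CPM in the control members against 685 CPM in the control neutrophil clusters. In the other library it had 26776 UMIs and 22171 CPM against 106 CPM. The ratio was 11.8-fold (11.4 to 12.2) in control and 208-fold (199 to 218) in IL-12. No single neutrophil cluster came near: Ngp stood at 13.2 to 1173 CPM over the 5 control clusters and at 51.7 to 199 CPM over the 5 IL-12 clusters.

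Camp, the precursor of the antimicrobial peptide cathelicidin, had 1338 UMIs and 1036 CPM in the control members and 8693 UMIs and 7198 CPM in the IL-12 members. The neutrophil clusters held 45.1 and 18.0 CPM. The ratio was 23-fold (20.4 to 26.0) in control and 401-fold (358 to 449) in IL-12; without cells of shared barcodes it was 43.8-fold (37.3 to 51.7) in control, at 1044 against 23.9 CPM, and 375-fold (335 to 421) in IL-12. Ltf, the iron-binding lactoferrin, stood at 989 and 4071 CPM against 108 and 37.3 CPM, a ratio of 9.13-fold (8.35 to 9.99) and 109-fold (101 to 119). In all 3 genes the IL-12 members stood above the control members while the IL-12 neutrophil clusters stood below the control ones (for Camp 18.1 against 23.9 CPM without cells of shared barcodes), so the ratio differed between libraries on both of its sides.

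**Figure D1:**
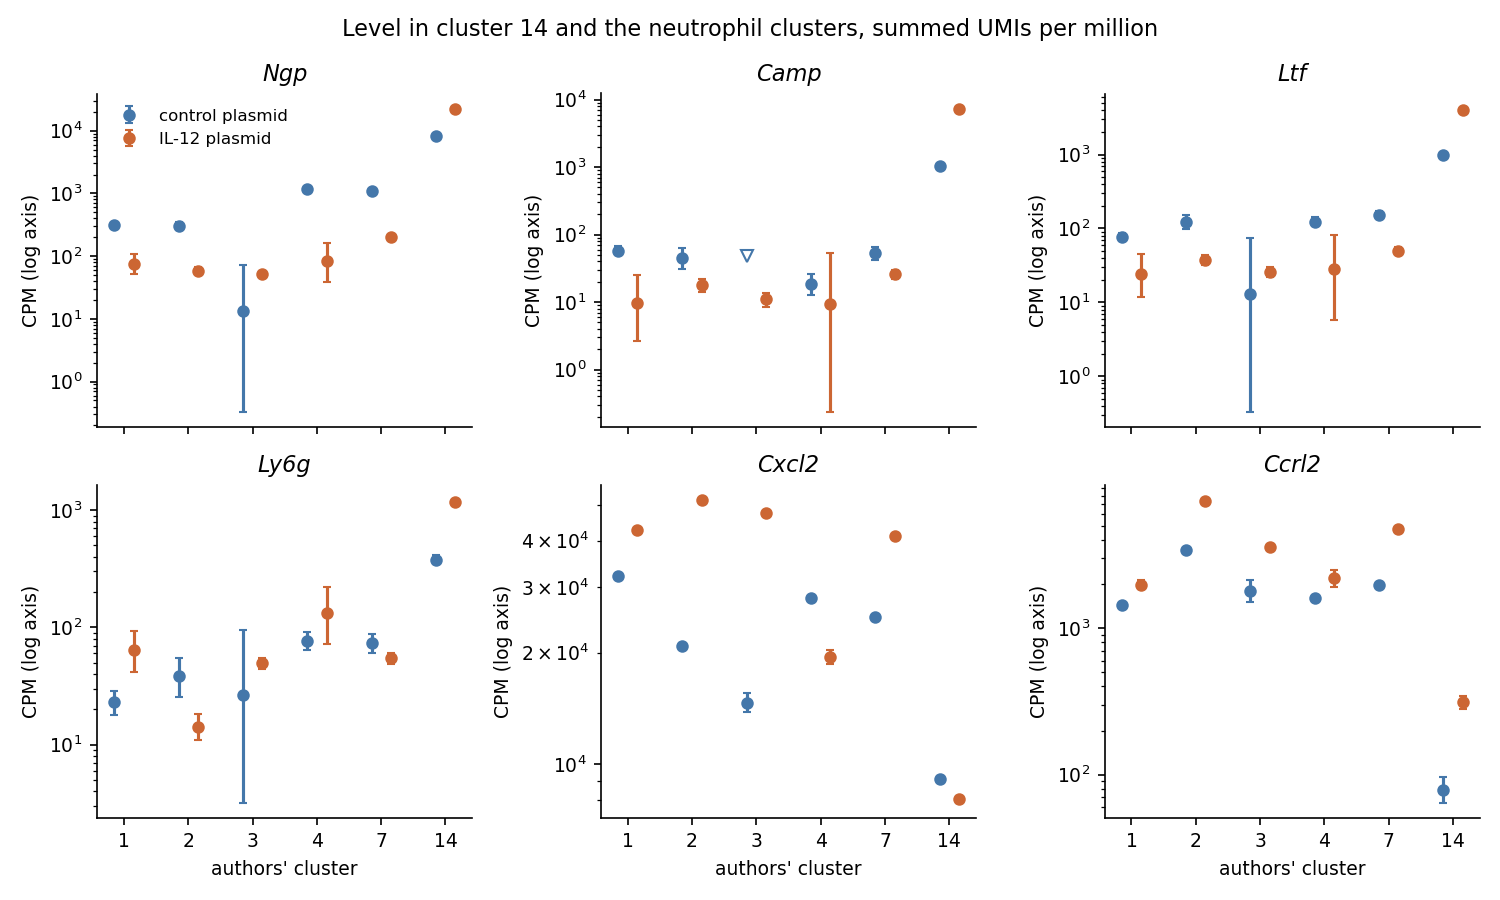
Level in CPM (log axis) of Ngp, Camp, Ltf, Ly6g, Cxcl2 and Ccrl2 in neutrophil clusters 1, 2, 3, 4 and 7 and in cluster 14, by library; bars are exact Poisson 95% intervals and an open triangle is the upper limit where no UMI was counted. Cluster 14 is highest in both libraries for Ngp (8071 and 22171 CPM), Camp, Ltf and Ly6g and lowest for Ccrl2 (79.0 and 311 CPM).

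Depth differed between cluster 14 and the neutrophil clusters, so shares of cells were compared with each cell thinned at random to 1000 UMIs, which left out 110 control and 183 IL-12 cells of the neutrophil clusters and none of cluster 14. A thinned Ngp UMI was found in 62.5% of control and 71.8% of IL-12 members, against 8.25% and 4.27% of the neutrophil clusters and 2.03% and 1.41% of T cell clusters 5 and 8, which should not express it (median depth 5600 and 6058 UMIs). For Camp the shares were 16.1% and 38.5%, against 0.870% and 1.21% and, in the T cell clusters, 0.169% and 0.391%. For Ltf they were 16.7% and 37.6%, against 3.73% and 2.84% and, in the T cell clusters, 0.507% and 0.274%. At this thinned depth Ngp was found in more members than Camp or Ltf. Unthinned, Ngp was found in 77.1% and 86.3% of members, Camp in 22.9% and 51.3% and Ltf in 27.1% and 45.3%.

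Ly6g, the surface protein used to mark mouse neutrophils, stood at 380 and 1164 CPM in control and IL-12 members, against 48.5 and 43.3 CPM in the neutrophil clusters. The ratios were 7.83-fold (6.81 to 9.0) and 26.9-fold (24.6 to 29.4). After thinning 25% and 58.1% of members had a Ly6g UMI, against 2.28% and 2.49% of the neutrophil clusters and 0.338% and 0.0783% of the T cell clusters. Anxa1, which encodes the anti-inflammatory membrane-binding protein annexin A1, stood at 1236 and 3122 CPM against 288 and 105 CPM, ratios of 4.29-fold (4.02 to 4.59) and 29.6-fold (28.0 to 31.3). Ifitm6, a small membrane protein of the interferon-induced transmembrane family, stood at 3294 and 4203 CPM against 300.1 and 149 CPM. Serpinb1a, an inhibitor of neutrophil serine proteases, stood at 106 and 238 CPM against 9.70 and 3.39 CPM, and Padi4, which citrullinates histones in neutrophils, at 101 and 104 CPM against 17.3 and 5.14 CPM. Each of these was higher in both libraries.

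The other genes among the 15 highest were Aldh2, an aldehyde dehydrogenase, at 161 and 363 CPM, Adpgk, a glucokinase that uses ADP, at 183 and 200.4 CPM, Ckap4 at 166 and 269 CPM, Agpat2, an enzyme of phospholipid synthesis, at 24.8 and 89.4 CPM, the stefin Stfa3 at 1778 and 992 CPM, Krt83 at 55.8 and 46.4 CPM, and Orm1, an acute phase protein, at 18.6 and 68.7 CPM. Orm1 and Krt83 are uncertain, because 17.7% and 17.0% of their 60-base stretches also occur in other genes. Orm1 was carried by few cells: 5 cells held 66.7% of its control and 72.3% of its IL-12 UMIs in the cluster.

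The list of 15 granule protein genes described the same side of the comparison in full. Of 11 measured in control 9 were higher and 0 lower, with a median log2 ratio of 1.67. Of 12 in IL-12 11 were higher and 0 lower, with a median of 3.22. The gene measured only in IL-12 was the primary granule gene Prtn3, which had few UMIs. Prtn3 and Camp reached the minimum share of cells only through cluster 14, so their place in these counts adds no support. Over all measured genes 4.24% and 10.1% were higher. Lcn2, the siderophore-binding lipocalin of specific granules, stood at 6784 and 9776 CPM against 2135 and 819 CPM, ratios of 3.18-fold (3.10 to 3.26) and 11.9-fold (11.7 to 12.2). Cd177, a neutrophil surface protein also stored in specific granules, stood at 870 and 985 CPM against 239 and 45.0 CPM. Chil3, a chitinase-like lectin, stood at 544 and 231 CPM against 157 and 4.07 CPM. Wfdc21 stood at 5182 and 3586 CPM against 1628 and 618 CPM, and Cybb, the catalytic subunit of the phagocyte oxidase, at 166 and 450.4 CPM against 79.9 and 60.7 CPM. Outside the list, Pglyrp1, a peptidoglycan-binding granule protein, stood at 2412 and 4317 CPM against 504 and 317 CPM.

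The matrix proteases and the integrin of the list differed less than Ngp, Camp and Ltf. Mmp8, the neutrophil collagenase, stood at 951 and 517 CPM against 351 and 69.7 CPM, ratios of 2.71-fold (2.53 to 2.90) and 7.41-fold (6.72 to 8.17). Mmp9, the gelatinase, stood at 730.4 and 480.3 CPM against 670 and 216 CPM, ratios of 1.09-fold (1.02 to 1.17) and 2.22-fold (2.03 to 2.42). Itgam, the CD11b integrin chain, stood at 357 and 144 CPM against 324 and 97.4 CPM. In control neither Mmp9 nor Itgam reached 2-fold.

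Primary granule genes were almost without UMIs. Mpo (myeloperoxidase) and Elane (neutrophil elastase) had 0 UMIs in the cluster in both libraries, and Ctsg, the protease cathepsin G, had 1 and 0. Prtn3, proteinase 3, had 3 and 17 UMIs, ratios to the neutrophil clusters of 0.240 (0.0483 to 0.729) for the control members and 3.08 (1.71 to 5.23) for the IL-12 members. Cebpe, which encodes C/EBPε, had 3 UMIs in control, at 2.32 against 6.01 CPM. In IL-12 it had 42, at 34.8 against 6.55 CPM, a ratio of 5.31 (3.64 to 7.61). Few cells carried it: the 42 UMIs lay in 17 of 117 IL-12 members, and 5 cells held 64.3% of them. Fcnb, the ficolin of early neutrophil precursors, had 1 and 17 UMIs, with an IL-12 ratio of 83.0 (24.0 to 442) that rests on few UMIs. Gfi1, a repressor needed for granulocyte formation, had 0 in both. Cebpb and Cebpd, C/EBP factors of mature and activated myeloid cells, stood at 3831 and 4023 CPM against 5151 and 6045 CPM and at 46.5 and 156 CPM against 79.1 and 222 CPM.

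Genes of dividing cells gave little signal. The proliferation marker Mki67 had 6 and 16 UMIs, Top2a, a topoisomerase of dividing cells, 4 and 14, and Ube2c, which acts at the exit from mitosis, 0 and 37 UMIs; the latter lay in 7 IL-12 members (5.98%), and 29 of the 37 UMIs came from 1 cell. Cxcr4, the receptor that holds neutrophils in the marrow and rises with age, stood at 96.0 and 50.5 CPM against 241 and 295 CPM, 2.51-fold (2.09 to 3.03) and 5.84-fold (4.54 to 7.65) lower. Of the 11 genes listed for maturation and ageing 7 and 8 were measured, with 0 and 1 higher and 3 and 3 lower, where 28.0% and 25.2% of all measured genes were lower.

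Stefins and cystatins, inhibitors of cysteine proteases encoded by a cluster of near-identical genes, stood high in the cluster. Besides Stfa3, Stfa2 stood at 5461 and 2671 CPM (3.13-fold and 4.47-fold higher), Cstdc6 at 4070.2 and 1711 CPM (3.72-fold and 4.02-fold) and Stfa1 at 225 and 128 CPM (3.65-fold and 4.15-fold). Cstdc4, at 8043 and 3785 CPM, was 1.82-fold higher in control but stood at 0.871 of the neutrophil clusters in IL-12. Of their 60-base stretches, 15.1% in Stfa1, 10.2% in Stfa2 and 16.9% in Stfa2l1 also occur in other genes, against 0% in Stfa3. Reads of the former can thus be counted for another gene. No such share was obtained for the Cstdc genes.

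On the lower side stood genes that neutrophils switch on when activated in tissue. Cxcl1, a neutrophil-attracting chemokine, stood at 9.29 and 9.94 CPM in cluster 14 against 302 and 624 CPM in the neutrophil clusters, 32.5-fold (18.6 to 63.0) and 62.8-fold (35.9 to 122) lower. Ccrl2, a chemerin-binding receptor of activated neutrophils, stood at 79.0 and 311 CPM against 1796 and 4904 CPM, 22.7-fold (18.7 to 27.9) and 15.8-fold (14.2 to 17.5) lower. After thinning 6.77% and 17.9% of members held a Ccrl2 UMI, against 55.0% and 78.9% of the neutrophil clusters and 3.04% and 5.52% of T cell clusters 5 and 8. Cluster 14 lay below every neutrophil cluster for Ccrl2 in both libraries.

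Further genes of the 15 lowest act in stress, sensing, adhesion and coagulation. Gadd45b, a stress-response gene, stood at 37.2 and 96.1 CPM against 601 and 1783 CPM. Hcar2, the receptor for niacin and hydroxybutyrate, stood at 81.3 and 256 CPM against 958 and 3481 CPM, Nlrp3, the inflammasome sensor, at 99.9 and 79.5 CPM against 762 and 1632 CPM, and Icam1, an adhesion protein, at 5.42 and 19 CPM against 110.2 and 309.99 CPM. F10, coagulation factor X, stood at 18.6 and 17.4 CPM against 367 and 260.3 CPM. Il23a, a subunit of interleukin 23, had 0 UMIs in control, at least 23.4-fold lower against a floor of 3 counts over the cluster, and 9 UMIs in IL-12, 15.1-fold lower. Ciart, Mreg, Plcxd2, Treml4, Gbp5 and Nceh1 were also among the 15; Ciart had 2 and 1 UMIs, Plcxd2 0 and 1 and Treml4 2 and 0.

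The inflammatory program was lower, not missing. Il1b, which encodes the cytokine interleukin 1 beta, stood at 2670 and 2891 CPM against 6396 and 9693 CPM, 2.40-fold (2.31 to 2.48) and 3.35-fold (3.24 to 3.47) lower, and 71.4% and 64.1% of thinned members held a UMI, against 88.3% and 92.8% of the neutrophil clusters and 7.60% and 9.12% of the T cell clusters. Cxcl2, a chemokine that attracts neutrophils, stood at 9137 and 8049 CPM against 28275 and 45919 CPM, 3.09-fold (3.04 to 3.15) and 5.70-fold (5.59 to 5.82) lower. Ccl3 stood at 590.2 and 669 CPM against 3261 and 7205 CPM, and Ccl4, a related chemokine, at 1988 and 2324 CPM against 2879 and 8752 CPM. Tnf, a cytokine, stood at 18.6 and 99.4 CPM against 242 and 1013 CPM, the prostaglandin enzyme Ptgs2 at 47.2 and 20.7 CPM against 559.8 and 429 CPM, and Cd274, the checkpoint ligand PD-L1, at 83.7 and 144 CPM against 548 and 874 CPM. Every one of these genes was lower in both libraries, and only Ccl4 in control was lower by less than 2-fold.

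Gene lists gave the same picture in counts. Of the chemokine list 0 of 10 measured genes were higher and 6 lower in control (median log2 ratio -1.62) and 0 of 12 higher and 10 lower in IL-12 (-2.02). For the IL-1 family and inflammatory cytokines 6 of 8 and 7 of 9 were lower (medians -2.79 and -3.34), for heat shock and dissociation stress genes 10 of 11 and 11 of 11 (-1.77 and -2.31), and for death and survival genes 10 of 11 and 10 of 11 (-1.90 and -2.05), with 0 higher in each. Over all measured genes 28.0% were lower in control and 25.2% in IL-12, and the medians were -0.53 and -0.29. Junb, an immediate early gene on the stress list that cell dissociation can also raise, stood at 795 and 864 CPM against 2813 and 3965 CPM.

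Most measured type I interferon genes were lower in cluster 14 in both libraries, while the IL-12 counts of the interferon-gamma and MHC class I lists lay near the share of all measured genes. That share, of genes at least 2-fold lower, was 28.0% in control and 25.2% in IL-12. Of the type I interferon list 7 of 9 and 9 of 11 measured genes were lower and 0 higher (medians -1.43 and -1.91), of the interferon-gamma list 9 of 13 and 4 of 15 (-1.48 and -0.81) and of the MHC class I list 6 of 11 and 3 of 11 (-1.26 and -0.68). Isg15, a ubiquitin-like interferon-induced protein, stood at 769.9 and 1615 CPM against 2115 and 5604 CPM. H2-K1, a class I heavy chain, stood at 672 and 2469 CPM against 1935 and 4329 CPM, and its partner B2m at 606 and 1758 CPM against 1817 and 4816 CPM. Of the long nuclear RNAs 3 of 3 were lower in each library; Malat1, retained in nuclei, stood at 6571 and 5416 CPM against 15559 and 11248 CPM. The core neutrophil list was mixed, with 3 of 15 higher and 2 lower in control and 4 of 15 higher and 5 lower in IL-12 (medians -0.39 and -0.52).

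**Figure D2:**
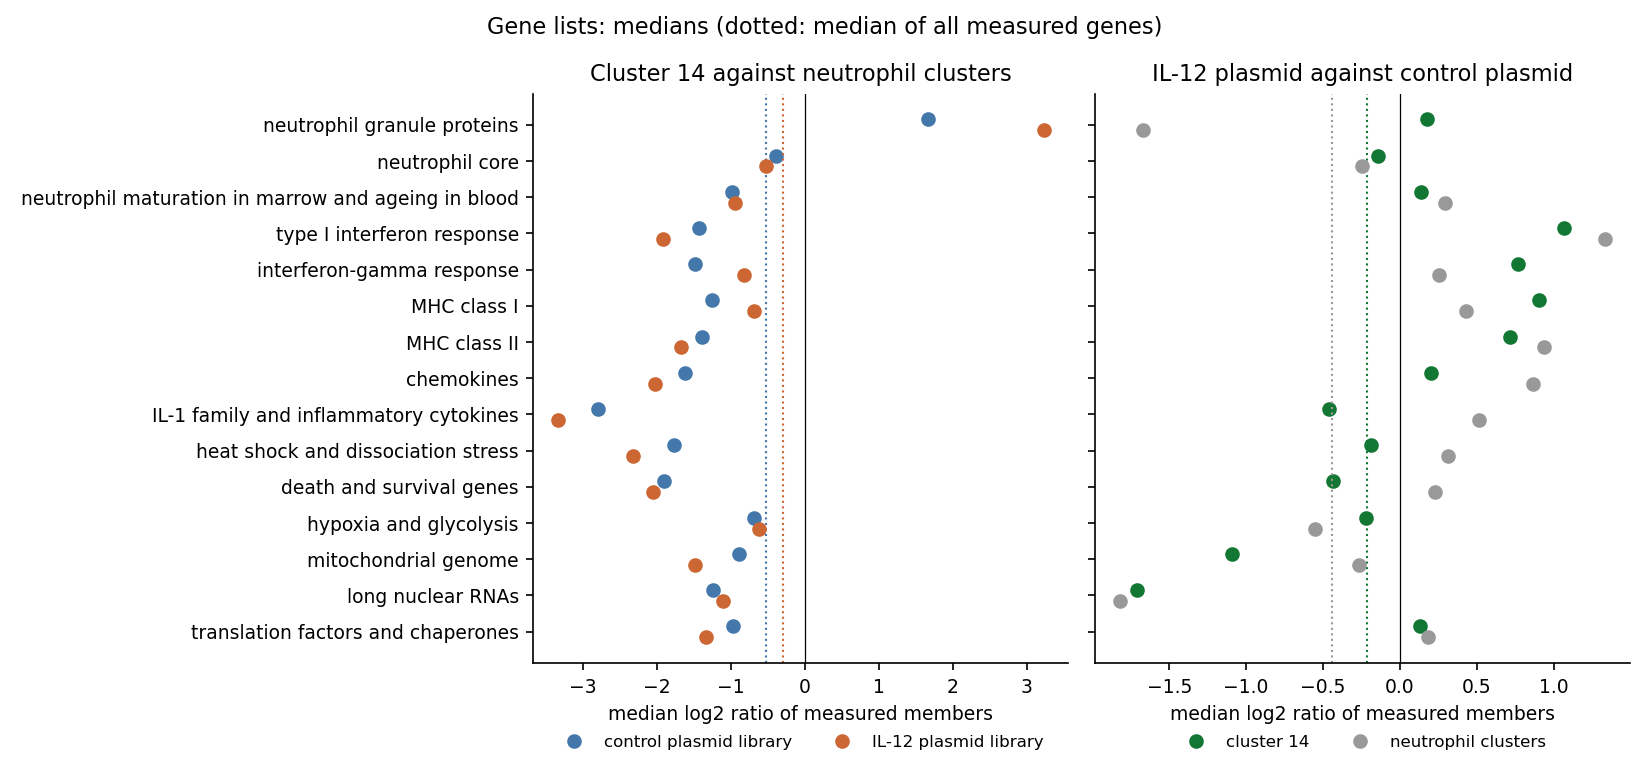
Median log2 ratio of 15 gene lists: cluster 14 against the neutrophil clusters in each library (left) and IL-12 against control in cluster 14 and in the neutrophil clusters (right), with the median of all measured genes dotted. The granule protein list lies farthest to the right of the left panel (1.67 in control, 3.22 in IL-12) and the IL-1 and inflammatory cytokine list farthest to the left (-2.79 and -3.34).

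Against cluster 7, the neutrophil cluster nearest in depth, the genes named here went the same way as against all 5. In IL-12 the depths still differed, with a median of 9334 UMIs in cluster 14 and 5203 in cluster 7. In control 134 of 3136 measured genes were higher (4.27%) and 927 lower (29.6%), in IL-12 327 of 4395 were higher (7.44%) and 1459 lower (33.2%). Ngp was 7.40-fold (7.03 to 7.80) and 112-fold (105 to 118) higher than in cluster 7, Camp 19.7-fold (15.8 to 24.9) and 278-fold (238 to 327), Ltf 6.53-fold (5.68 to 7.54) and 81.1-fold (72.4 to 91.2) and Ly6g 5.14-fold and 21.2-fold. Cxcl1 was 41.1-fold and 54.8-fold lower and Ccrl2 24.8-fold and 15.1-fold lower. Of 11 measured granule genes 8 were higher in control and 10 of 11 in IL-12, with 0 lower in both.

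The members were not uniform. In cells thinned to 1000 UMIs the control members held a median of 2 Ngp UMIs and at most 37. Of 192 control members 72 held 0 Ngp UMIs (37.5%), 38 held 1 or 2, 41 held 3 to 9, 18 held 10 to 19 and 23 held 20 or more (12%). Of 117 IL-12 members 33 held 0 (28.2%), 14 held 1 or 2, 24 held 3 to 9, 9 held 10 to 19 and 37 held 20 or more (31.6%). A share of each library's members thus held no thinned Ngp UMI, and the IL-12 members held a larger share at the top of the range.

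At least 10 thinned Ngp UMIs were found in 41 of 192 control members (21.4%, 15.8 to 27.8) and 46 of 117 IL-12 members (39.3%, 30.4 to 48.8). In the neutrophil clusters 19 of 2413 control cells (0.787%, 0.475 to 1.23) and 7 of 5624 IL-12 cells (0.124%, 0.0501 to 0.256) held as many, and in T cell clusters 5 and 8 0 of 592 and 0 of 2555 did. Cluster 14 therefore held 41 of 60 such control cells (68.3%, 55.0 to 79.7) and 46 of 53 such IL-12 cells (86.8%, 74.7 to 94.5) of the 6 clusters. Of the neutrophil-cluster cells at this level 1 of 19 control and 0 of 7 IL-12 cells had a shared barcode.

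**Figure D3:**
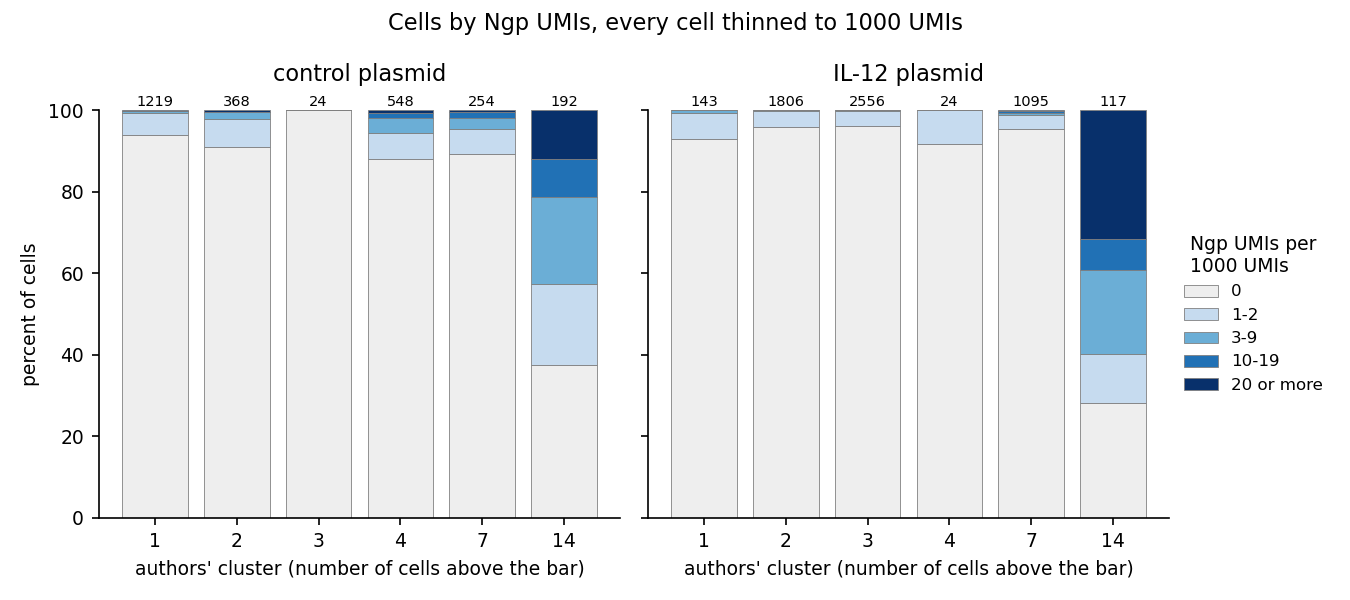
Cells of neutrophil clusters 1, 2, 3, 4 and 7 and of cluster 14 by their number of Ngp UMIs after thinning to 1000 UMIs, as a percentage of cells, by library; the number of cells stands above each bar. Cells with 20 or more make up 12% of the control and 31.6% of the IL-12 members of cluster 14.

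A single thinned UMI of Ngp, Camp or Ltf was absent from 71 control members (37.0%) and 33 IL-12 members (28.2%), while all 3 genes were found in 25 (13%) and 42 (35.9%). To describe this spread, members with a thinned Camp UMI, 31 in control and 45 in IL-12, were set beside the other 161 and 72. Camp cells were deeper, with a median of 8810 against 5775 UMIs in control and 13907 against 7844 in IL-12, and the following values are from thinned cells. They held 22.7 Ngp UMIs per 1000 UMIs against 2.78 in control (8.15-fold, 7.23 to 9.20) and 39.2 against 3.15 in IL-12 (12.4-fold, 10.8 to 14.3). Ltf stood at 3.71 against 0.0745 per 1000 UMIs and at 7.87 against 0.0694, and Lcn2 at 11.1 against 4.57 and at 14.8 against 4.38. Ngp, Ltf and Lcn2 thus stood higher in Camp cells, while Ngp was also found in members without a thinned Camp UMI.

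Wfdc17, Il1b and Cxcl2 were lower in Camp cells than in the other members in both libraries. Wfdc17 stood at 2.97 UMIs per 1000 in Camp cells against 17.3 in the others in control, 5.83-fold (4.74 to 7.26) lower, and at 2.71 against 17.1 in IL-12. Il1b stood at 0.935 against 3.40 per 1000 and at 1.13 against 4.79, and Cxcl2 at 3.48 against 10.1 and at 5.24 against 12.4. Csf3r had 2 thinned UMIs in Camp cells and 109 in the others in control, and 6 and 22 in IL-12. The neutrophil marker S100a8 stood higher in Camp cells, at 169 against 116 per 1000 in control and 160.5 against 125 in IL-12. The inflammatory genes were not uniform: in IL-12 Ccl3 stood at 0.822 per 1000 in Camp cells against 0.833 in the others (0.987-fold, 0.637 to 1.51) and Ccrl2 at 0.311 against 0.306 (1.02-fold, 0.482 to 2.08). Few cells carried much of the Camp RNA: the top 5 cells held 57.3% of its control and 38.5% of its IL-12 UMIs, against 20.3% and 24.8% for Ngp.

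Between libraries, the question is whether cluster 14 differed after IL-12 plasmid. Of 2360 genes measured in cluster 14, 139 stood at least 2-fold higher in the IL-12 library (5.89%) and 341 lower (14.4%), with a median log2 ratio of -0.21. In the neutrophil clusters 144 of 3313 stood higher (4.35%) and 662 lower (20.0%), with a median of -0.44. IL-12 members were deeper than control members, and after thinning every cell to 1000 UMIs 38 genes stood higher and 67 lower. With 1 pool of mice per treatment none of these differences could be tested.

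Interferon-induced genes and MHC class I genes led the higher side. Gbp4, an interferon-induced GTPase, stood at 4.65 CPM in control members and 99.4 CPM in IL-12 members, 21.4-fold (9.54 to 59.4), log2 4.15; in the neutrophil clusters its log2 ratio was 3.28. The class I gene H2-Q6 had 2 and 94 UMIs (log2 4.95, and 2.03 in the neutrophil clusters) and Ly6c2, a surface protein of monocytes and T cells that interferon induces, stood at 41.1 and 366 CPM, 8.92-fold (6.69 to 12.1). H2-Q6, Ly6c2 and Tgtp1, an interferon-induced GTPase at log2 2.88, are uncertain, because 25.3%, 11.9% and 79.6% of their 60-base stretches occur in other genes. H2-K1 stood 3.67-fold higher, at 672 and 2469 CPM, B2m 2.90-fold higher and Isg15 2.1-fold higher. Of the type I interferon list 4 of 7 measured genes were higher and 0 lower (median log2 ratio 1.07), of the interferon-gamma list 4 of 12 and 0 (0.77) and of the MHC class I list 3 of 9 and 0 (0.91). Over all genes measured in cluster 14, 5.89% stood higher. In the neutrophil clusters 8 of 11 measured type I interferon genes stood higher in IL-12 and 0 lower (median 1.34). Of all genes measured there, 4.35% stood higher. H2-K1, B2m and Isg15 also stood higher in the IL-12 than in the control neutrophil clusters.

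Further genes of the 10 highest rested on few cells or on ambiguous sequence. Cxcl10, a chemokine that attracts T cells, stood at 11.6 and 108 CPM, but 5 cells held 89.2% of its IL-12 UMIs; 5 cells also held 96.2% of those of the chemokine Ccl8. Gadd45g, a stress-response gene, stood at 4.65 and 41.4 CPM, log2 2.91. Hmgn2-ps1, Atp6v0c-ps2 and Tpt1-ps6 are pseudogenes that share 100%, 85.2% and 46.1% of their 60-base stretches with other genes.

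On the lower side Retnla, a resistin-like protein known from alternatively activated macrophages, had 640 UMIs in control members and 1 UMI in IL-12 members, 496 and 0.828 CPM, a ratio of 599-fold lower (107 to 23682). In the neutrophil clusters Retnla stood at 119 and 3.56 CPM, log2 -4.72, and within control cluster 14 its UMIs lay in 41 cells, with 44.2% in 5 cells. Saa3, an acute phase protein, stood at 411 and 58.8 CPM, 6.98-fold (5.44 to 9.08) lower, with 5 cells holding 63.8% and 71.8% of its UMIs. Ecm1, an extracellular matrix protein, stood at 87.5 and 11.6 CPM and the chemokine Ccl9 at 46.5 and 8.28 CPM. Crip1 stood at 96.0 and 14.9 CPM (log2 -2.61), and without cells of shared barcodes at 54.6 and 15.2 CPM (log2 -1.78). The heat shock gene Hspa1b, at 60.4 and 1.66 CPM, had 88.5% of its control UMIs in 5 cells and shares 59.6% of its stretches with other genes. Rn7s1 (log2 -4.14), which shares all of its stretches, Cass4 (-2.47), Usp9x (-2.40) and Ahnak (-2.37) completed the 10 lowest.

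Granule genes differed in opposite ways in cluster 14 and in the neutrophil clusters. Ngp stood 2.75-fold (2.69 to 2.81) higher in IL-12 than in control members, while in the neutrophil clusters it stood 6.44-fold lower. Ltf stood 4.12-fold higher in cluster 14, and at log2 -1.51 in the neutrophil clusters. Camp stood 6.95-fold (6.56 to 7.36) higher in cluster 14 and at log2 -1.28 in the neutrophil clusters, where it was too rare to count as measured; without cells of shared barcodes the latter was -0.38, at 23.9 CPM in control and 18.1 CPM in IL-12. Lcn2 stood at log2 0.53 and -1.38, and Ly6g at 1.61 and -0.16. Among members with a thinned Camp UMI, Ngp stood at 22.7 UMIs per 1000 in control and 39.2 in IL-12, and among the others at 2.78 and 3.15; Camp cells were 16.1% (11.2 to 22.1) and 38.5% (29.6 to 47.9) of the members, and their part in the difference was not tested. The direction was not shared by all granule genes: Mmp8 stood at log2 -0.88 and -2.32 and Chil3 at -1.23 and -4.96. Of 11 measured granule genes 4 stood 2-fold higher and 2 lower in cluster 14 (median 0.18), and of 10 in the neutrophil clusters 0 stood higher and 9 lower (median -1.67).

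**Figure D4:**
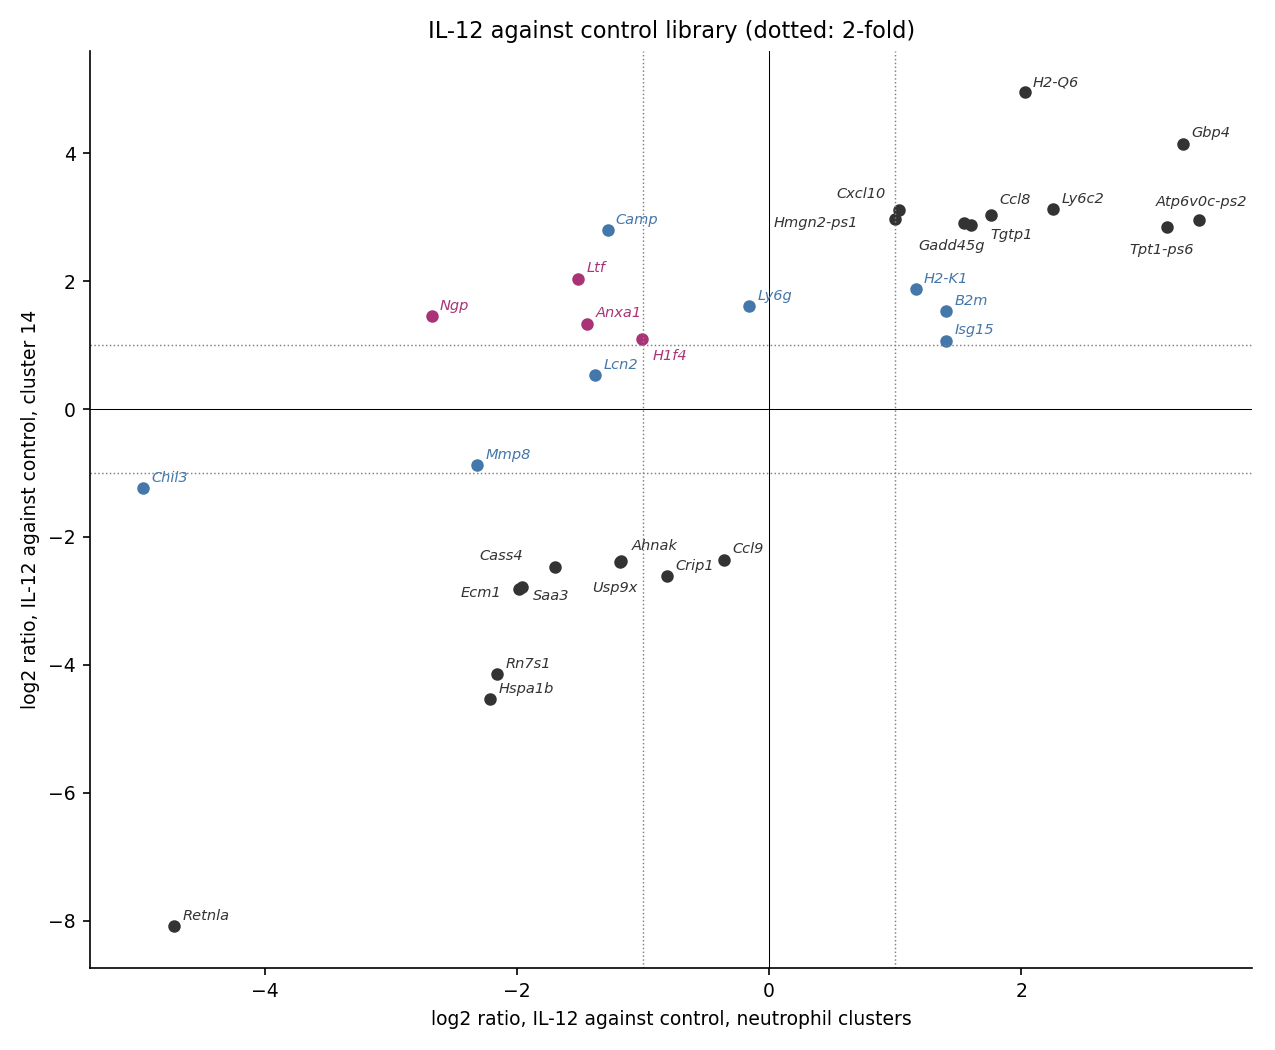
Log2 ratio of IL-12 against control in the neutrophil clusters (horizontal) and in cluster 14 (vertical), with 2-fold lines dotted; black points are the 10 highest and 10 lowest genes of cluster 14, blue points other named genes and purple points the 4 genes past 2-fold in opposite directions. Ngp (1.46 against -2.67) and Ltf lie in the upper left, H2-Q6 and Gbp4 in the upper right and Retnla in the lower left.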

How the data were processed

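Cells were sorted and sequenced as 1 gene expression library per treatment. Per the submitters' processing notes, the tools were Partek (no version named), STAR 2.6.1 and Cell Ranger 2.1.0, with mm10. For each library the authors deposited a table of cells by 11407 genes with log2 values, which were read from the values themselves as log2 of counts per 1000000 plus 1, beside their cluster and class columns. A column of a total was not used as a depth. The table of cells with T cell receptors was not used, and 0 columns of per-sample values were left unused.

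UMIs were recovered by undoing the logarithm and taking a cell's smallest value above 0 as 1 UMI; the results were whole within 0.1 for all but 6 of 4251108 control and 13 of 13883686 IL-12 values. A cell's total includes genes outside the table, whose genes held 85.2% and 85.5% of the UMIs of cluster 14 and 80.7% and 82.4% of those of the neutrophil clusters. UMIs were summed per cluster and library, and 1 CPM was added to both levels for log2 ratios; printed folds are ratios of CPM without it. The steps were tested on simulated data: intervals held the true ratio for 95.9% of 3912 genes in the control and 96.2% of 4393 genes in the IL-12 comparison, with identical profiles for all simulated cells. Scrublet in scanpy 1.11.5 marked 2 of 4232 control cells (0.0473%) and 1 of 12979 IL-12 cells (0.00770%), 0 of them in cluster 14, too few for the caller to have worked, so doublets were not removed.

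The members and gene lists were chosen with earlier results of these data known. Named genes are the 15 highest and 15 lowest against the neutrophil clusters over both libraries, the 10 highest and 10 lowest of IL-12 against control, the 10 highest by level, up to 4 per list by UMIs, and S100a8, S100a9, Csf3r, Cxcr2, Cd3e, Cd8a, Cd79a, C1qa and Malat1; ranks skipped T cell receptor and immunoglobulin segments and the genes of mitochondria and ribosomal proteins. Further genes of granule stages, stefins, inflammation and interferon responses were chosen after their values were seen. A few of the named genes are not reported here. Python 3.11.15, numpy 2.4.6, scipy 1.17.1, pandas 2.3.3 and matplotlib 3.10.9 were used.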

Additional observations from a re-analysis of the deposited data

Results flagged for a closer look

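Of 2250 genes measured both in cluster 14 and in the neutrophil clusters, 4 stood at least 2-fold higher in the IL-12 than in the control library in cluster 14 and at least 2-fold lower in the neutrophil clusters; the difference was not tested. The log2 ratios were 1.34 in cluster 14 and -1.44 in the neutrophil clusters for Anxa1, 1.09 and -1.0 for the linker histone gene H1f4, 2.04 and -1.51 for Ltf, and 1.46 and -2.67 for Ngp. H1f4 rested on 31 control and 63 IL-12 UMIs, at 24.0 and 52.2 CPM in cluster 14 and 47.8 and 23.3 CPM in the neutrophil clusters, just past the threshold.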

How the results depend on the processing

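No paired analysis was possible because each treatment has 1 library and the labels give no replicate numbers. Over clusters 1, 2, 3, 4, 7 and 14 the share of cluster 14 was 7.07% in control and 1.98% in IL-12, and over the cells outside the neutrophil clusters 11.2% and 1.63%. Counting only UMIs of the table's genes, the median depth was 5202 and 7972 UMIs. Against the neutrophil clusters with both libraries pooled, 341 of 4112 measured genes were higher and 968 lower. A pseudocount of 10 CPM gave 204 higher, the control library alone 166 and thinned cells 189. A minimum of 10 UMIs with no minimum share of cells gave 2523 lower, and thinned cells gave 536 lower. For IL-12 against control in cluster 14, 139 genes were higher and 341 lower. A minimum of 10 UMIs, again with no minimum share of cells, gave 400 and 817, and a minimum of 200 UMIs 61 and 112. Thinned cells gave 38 and 67, thinned cells with Camp 15 and 11 and thinned cells without it 33 and 45. A pseudocount of 10 CPM gave 221 lower. Pooled log2 ratios of Camp, Ltf and Ngp were 7.22, 5.39 and 5.75, and 6.62, 4.94 and 5.36 without the deepest 20 control and 12 IL-12 members. Without members holding UMIs of another type (27 and 38 cells) 342 genes were higher and 929 lower, and 106 and 287 for IL-12 against control; without shared barcodes the counts were 351 and 970, and 143 and 339. Leaving out members with UMIs of another type, leaving out shared barcodes and the split by Camp were chosen after seeing the data. So were the thinning for IL-12 against control and the comparison with cluster 7. Leaving out cells marked as doublets or with a T cell receptor was not run, because 0 members were such. Reversals of direction were looked for only among gene ratios and list medians at least 2-fold apart in the main setting, and numbered 0.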

Other observations

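Of the hypoxia and glycolysis list 4 of 12 measured genes were at least 2-fold lower in cluster 14 than in the neutrophil clusters in control and 5 of 12 in IL-12 (median log2 ratios -0.69 and -0.62), of the translation factors and chaperones 4 of 10 and 6 of 10 (-0.97 and -1.34) and of the genes of the mitochondrial genome 3 of 9 and 7 of 9 (-0.89 and -1.48), with 0 higher in each. Over all measured genes 28.0% were lower in control and 25.2% in IL-12, with medians of -0.53 and -0.29, so the hypoxia count in control lies near that of all genes. Of MHC class II genes 4 of 5 and 5 of 6 were lower. Between libraries, 4 of 8 measured mitochondrial genes stood at least 2-fold lower in the IL-12 than in the control members and 0 higher (median -1.09), where 14.4% of all genes measured in the cluster stood lower. In the neutrophil clusters the median was -0.26.

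The 10 monocyte markers summed to 1228 and 1442 CPM in cluster 14 against 854 and 869 CPM in the neutrophil clusters. Plac8, a protein of myeloid cells, gave 583 and 802 CPM of this in cluster 14. The 10 epithelial or tumour markers summed to 6795 and 9781 CPM, of which Lcn2, also a granule gene, gave 6784 and 9776 CPM. The 15 proliferation genes summed to 112 and 235 CPM.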
